A study of Mus musculus with 4 samples.

Results

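Basement membranes are thin sheets of extracellular matrix that lie beneath endothelium and around pericytes, and cartilage cells lay down some of the same components in the matrix around them. They are built from 2 networks, one of type IV collagen and one of laminin, which nidogens and the heparan sulfate proteoglycan perlecan link to each other. The type IV collagen molecule of vessels holds chains encoded by Col4a1 and Col4a2, and each laminin molecule holds an alpha, a beta and a gamma chain. The 9 genes described here encode these parts: the collagen chains Col4a1 and Col4a2, the laminin alpha chains Lama4 and Lama5, the beta chain Lamb1, the gamma chain Lamc1, the nidogens Nid1 and Nid2, and perlecan (Hspg2). They were taken by name from the 31053 genes of the deposited count matrix, and all 9 were found there. Their levels are described in endothelial cells, pericytes, stromal cells, osteoblasts and chondrocytes.

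The cells came from the proximal and distal tibia of 1 male mouse at postnatal day 6 (P6), with both bones pooled (2 tibiae). The mouse carried Col10a1Cre;Rosa26-Tdtomato;Irx3 +/Δ;Irx5 +/- and is labelled as the Irx3/5 heterozygous control. Col10a1Cre acts in hypertrophic chondrocytes (HCs), and tdTomato then marks HCs and their descendants. By the study's methods the Irx3 deletion is also one of HCs, so the same Cre that switches on the reporter removes an Irx3 copy in that lineage, whereas Irx5 +/- is shared by all cells. The 4 sequencing entries were deposited as 1 joint matrix whose barcodes carry no map to them, and they were treated as 1 library. There is thus no replicate, no test and no p-value, and all intervals below are 95% intervals of counting error only.

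Transcript ends were counted in single cells by their molecular barcodes (UMIs). Of 14181 barcodes, 8256 cells were kept, with a median of 13957.5 UMIs. They formed 28 clusters, which were named from fixed marker genes without use of the 9 genes in the clustering. The 5 classes held 4362 cells: 820 endothelial-like, 100 pericyte-like, 548 stromal-like, 948 osteoblast-like and 1946 chondrocyte-like. Their median depths were 9036, 9363, 9871.5, 14350 and 22087.5 UMIs per cell. The markers below belong to the lists that gave the names, so their levels describe the classes and do not test the names. The endothelial adhesion gene Cdh5 stood at 1243 CPM (UMIs per 1e+06 UMIs of the class) in endothelial-like cells and at no more than 20.1 CPM in the other 4 classes. Rgs5, a pericyte gene, stood at 10936 CPM in pericyte-like cells, and the smooth muscle gene Myh11 at 652 CPM there, so that smooth muscle cells cannot be told apart from pericytes in this class. Cxcl12 stood at 3777 CPM in stromal-like cells, Bglap at 6161 CPM in osteoblast-like cells and Col2a1 at 44961 CPM in chondrocyte-like cells. Cxcl12 is from the marrow stromal list and Bglap from the mature osteoblast list, so each speaks for only a part of its class. Col2a1 was also found outside chondrocyte-like cells, at 1600 CPM in endothelial-like cells, 3280 CPM in pericyte-like cells and 1775 CPM in osteoblast-like cells. Whether this was RNA of other cells was not tested.

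Col4a1 (ENSMUSG00000031502, chr8:11198423-11312826, minus strand) and Col4a2 (ENSMUSG00000031503, chr8:11312805-11449287, plus strand) are a head-to-head pair of protein-coding genes whose first exons overlap by 22 bases (GRCm38, GENCODE M21). This segment is shown because the first exons of both genes cover it and their levels over the clusters were more alike than those of any other pair of the 9. Capitals in the sequences mark motif matches on either strand: the GC box, spelled GGGCGG, the CCAAT box, and the ETS core, spelled CCGGAA. The reverse complement of each was searched in the same way, and no match overlapped one of another motif. TATAAA was searched as well and had no match in them. The bases before the first exon of Lama5, Hspg2 and Nid1 are shown beside the shared segment. Lama5 and Nid1 were picked because, of the endothelial-like groups described, the elastin-led cells had the highest Lama5 level and the sinusoidal-like cells the highest Nid1 level. Hspg2 was picked because its level was high in endothelial-like and chondrocyte-like cells alike. The sequences are RefSeq's, from GRCm38.p6, which had a promoter entry for 6 of the 9 genes.
Shared start of Col4a1 and Col4a2 (chr8:11312805-11312826, plus strand): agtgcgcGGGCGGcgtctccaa
Lama5 (chr2:180225860-180226109, minus strand): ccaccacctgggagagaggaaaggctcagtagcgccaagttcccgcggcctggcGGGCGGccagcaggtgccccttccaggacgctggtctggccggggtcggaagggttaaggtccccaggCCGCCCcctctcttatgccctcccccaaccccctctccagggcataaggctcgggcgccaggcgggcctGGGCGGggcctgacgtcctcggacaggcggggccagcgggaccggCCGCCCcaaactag
Hspg2 (chr4:137468553-137468768, plus strand): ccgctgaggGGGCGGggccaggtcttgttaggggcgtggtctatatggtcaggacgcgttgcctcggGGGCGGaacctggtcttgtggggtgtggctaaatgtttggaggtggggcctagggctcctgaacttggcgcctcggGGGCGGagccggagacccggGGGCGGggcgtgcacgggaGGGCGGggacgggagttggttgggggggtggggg
Nid1 (chr13:13437352-13437550, plus strand): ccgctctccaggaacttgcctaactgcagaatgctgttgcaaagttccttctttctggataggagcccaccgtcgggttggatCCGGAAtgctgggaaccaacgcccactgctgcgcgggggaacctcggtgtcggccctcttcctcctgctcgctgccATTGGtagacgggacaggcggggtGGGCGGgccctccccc
The Lama5 stretch of 250 bases held 4 GC boxes, and 32.7% of 32851 promoter windows of the same length hold at least 1. The Hspg2 stretch of 216 bases held 5 GC boxes, against 27.9% of windows with at least 1. The Nid1 stretch of 199 bases held 1 GC box, 1 CCAAT and 1 ETS core, found in 24.4%, 28.2% and 7.97% of windows of that length. These matches describe the letters only.

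The other genes lie apart from each other. Lama4 (ENSMUSG00000019846) is at chr10:38965515-39110188 on the plus strand, Lama5 (ENSMUSG00000015647) at chr2:180176373-180225859 on the minus strand, Lamb1 (ENSMUSG00000002900) at chr12:31265234-31329644 on the plus strand, and Lamc1 (ENSMUSG00000026478) at chr1:153218922-153332786 on the minus strand. Nid1 (ENSMUSG00000005397) is at chr13:13437551-13512269, Nid2 (ENSMUSG00000021806) at chr14:19751265-19811787 and Hspg2 (ENSMUSG00000028763) at chr4:137468769-137570630, all on the plus strand. Hspg2 has 97 exons in its first listed transcript and Nid1 has 20. UMIs count transcript ends, so levels are compared between cells for 1 gene at a time.

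Of the 9 genes, 7 were at their highest of the 5 classes in endothelial-like cells, 1 (Col4a1) in pericyte-like cells and 1 (Nid2) in chondrocyte-like cells. Among all 10058 genes with at least 10 CPM in a class, 31.4% were highest in endothelial-like cells and 24.7% in pericyte-like cells. The vascular classes carried most of the family's type IV collagen and laminin UMIs, while chondrocyte-like cells held most of the perlecan and Nid2 UMIs. Endothelial-like cells were 9.93% of the cells kept and held 73.6% of all Col4a1 UMIs and 77.9% of all Lama5 UMIs. They held 16.7% of the Hspg2 UMIs and 12.6% of the Nid2 UMIs, of which 65.3% and 73.1% were in chondrocyte-like cells. The latter were 23.6% of the cells kept and gave 33.4% of the UMIs of all genes, against 7.26% from endothelial-like cells.

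**Figure D1:**
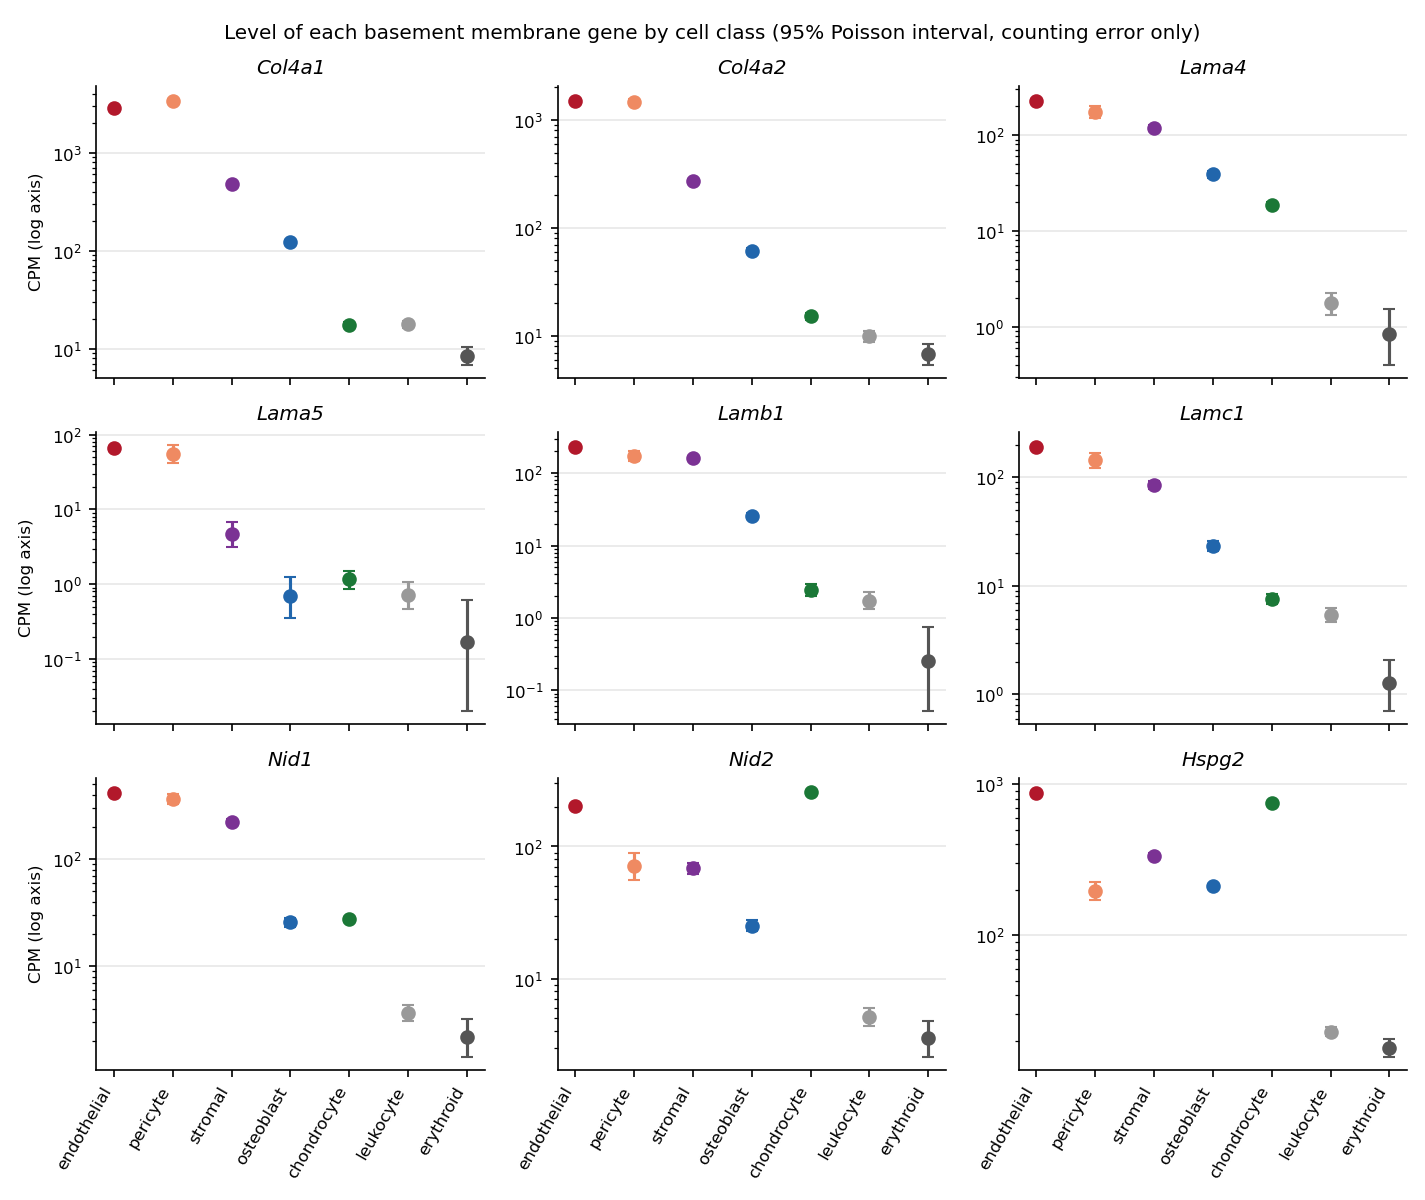
Level of each gene (CPM, log axis) in the 5 classes and in leukocyte-like and erythroid-like cells, with points for the class level and bars for the 95% Poisson interval. Col4a1 lies at 2857 CPM in endothelial-like and 3385 CPM in pericyte-like cells and at 17.4 CPM in chondrocyte-like cells, whereas Nid2 and Hspg2 stay above 200 CPM in both endothelial-like and chondrocyte-like cells.

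Taken by class, Col4a1 and Col4a2, the chains of the collagen network, were highest in endothelial-like and pericyte-like cells. They are not limited to these classes, and the study lists both among its markers of osteo-progenitors. Col4a1 stood at 3385 CPM (3274 to 3498) in pericyte-like cells, 2857 CPM (2824 to 2890.0) in endothelial-like cells, 477 CPM in stromal-like cells, 123 CPM in osteoblast-like cells and 17.4 CPM in chondrocyte-like cells. No neighbouring pair of classes in this order had overlapping intervals. Col4a2 stood at 1486 CPM in endothelial-like cells, 1481 CPM in pericyte-like cells, 272 CPM in stromal-like cells, 61.0 CPM in osteoblast-like cells and 15.2 CPM in chondrocyte-like cells. Its levels in endothelial-like and pericyte-like cells were not separated by counting error (ratio 1.003, 0.952 to 1.058). The Col4a1 level in endothelial-like cells was 164.0 times that in chondrocyte-like cells (152.8 to 176.1).

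The Col4a1 level in chondrocyte-like cells was not separated from that in leukocyte-like cells. Col4a1 stood at 17.7 CPM in leukocyte-like cells and 8.45 CPM in erythroid-like cells, and chondrocyte-like cells had 0.99 times the leukocyte-like level (0.89 to 1.10) and 2.06 times the erythroid-like level (1.67 to 2.56). Col4a2 was 1.53 times the leukocyte-like level (1.34 to 1.75). With every cell thinned to 5000 UMIs, 4.43% of 1941 chondrocyte-like cells and 4.403% of 2453 leukocyte-like cells had a Col4a1 UMI (13.5% and 7.47% before thinning, at median depths of 22087.5 and 10947 UMIs). Whether these shares are background was not tested. Within chondrocyte-like cells, the cycling ones (174 cells, 19.5% called doublets) had 61.8 CPM of Col4a1, beside a summed level of the 17 endothelial markers of 252 CPM, or 2.31% of the level in endothelial-like cells. For all chondrocyte-like cells that sum was 64.1 CPM, or 0.587%, and the part of endothelial RNA in the Col4a1 level was not tested. When the cells were clustered again without the called doublets, Col4a1 in chondrocyte-like cells was 10.5 CPM. That class then held 1647 cells and had no cycling subdivision, so its membership changed by more than the doublets. Over all settings its Col4a1 level ranged from 6.59 to 22.9 CPM.

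Each laminin chain had its own gradient. Lama4, the alpha chain found broadly in vessels, stood at 228 CPM in endothelial-like cells, 175 CPM in pericyte-like cells, 119 CPM in stromal-like cells, 38.9 CPM in osteoblast-like cells and 18.8 CPM in chondrocyte-like cells, with no overlap between neighbours. Lama5 was more restricted, with 65.5 CPM (60.6 to 70.7) in endothelial-like cells and 55.5 CPM (42.1 to 71.7) in pericyte-like cells, which counting error did not separate, and 4.66 CPM in stromal-like, 1.16 CPM in chondrocyte-like and 0.701 CPM in osteoblast-like cells. The last 2 levels rest on 53 and 11 UMIs, were not separated from each other (ratio 1.65, 0.852 to 3.50), and lay beside 0.719 CPM in leukocyte-like cells. With at most 5% mitochondrial UMIs, which left 22 pericyte-like cells, Lama5 was at 7.02 CPM in them, and under the other settings at 52.5 to 68.1 CPM. Lama5 transcripts were thus largely limited to endothelial-like and, less stably, pericyte-like cells, whereas Lama4 in chondrocyte-like cells was 10.6 times the leukocyte-like level (8.16 to 14.1).

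Lamb1 and Lamc1 encode the beta and gamma chains that pair with either alpha chain. Lamb1 stood at 233 CPM in endothelial-like cells, 172 CPM in pericyte-like cells, 161 CPM in stromal-like cells, 25.4 CPM in osteoblast-like cells and 2.42 CPM in chondrocyte-like cells. Its pericyte-like and stromal-like levels were not separated (ratio 1.07, 0.910 to 1.26), and stromal-like cells held 24.4% of all Lamb1 UMIs with 6.64% of the cells. Lamc1 stood at 189, 144, 85.9, 23.3 and 7.55 CPM in the same classes. In chondrocyte-like cells both chains were near the leukocyte-like level, at 1.39 times that level for Lamb1 (1.01 to 1.95) and for Lamc1 (1.15 to 1.67).

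The nidogens, which bind laminin and type IV collagen, differed from each other most of all. Nid1 stood at 416 CPM in endothelial-like cells, 363 CPM in pericyte-like cells, 224 CPM in stromal-like cells, 27.6 CPM in chondrocyte-like cells and 25.9 CPM in osteoblast-like cells, and only the last pair was not separated (ratio 1.07, 0.953 to 1.20). Nid2 stood at 256 CPM (252 to 261) in chondrocyte-like cells, above the 202 CPM (194 to 211) of endothelial-like cells. It stood at 70.8 CPM in pericyte-like cells, 68.3 CPM in stromal-like cells and 25.2 CPM in osteoblast-like cells, and pericyte-like and stromal-like cells were not separated (ratio 1.04, 0.799 to 1.33). Chondrocyte-like cells held 50.04 times the leukocyte-like Nid2 level (43.0 to 58.5). After thinning, 66.5% of chondrocyte-like cells had a Nid2 UMI, against 2.32% of leukocyte-like cells.

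Perlecan is the heparan sulfate proteoglycan of basement membranes and of the matrix around cartilage cells. Hspg2 stood at 876 CPM (857 to 894) in endothelial-like cells, 745 CPM (738 to 753) in chondrocyte-like cells, 337 CPM in stromal-like cells, 211 CPM in osteoblast-like cells and 196 CPM in pericyte-like cells. The last 2 were not separated (ratio 1.07, 0.932 to 1.24). After thinning, a Hspg2 UMI was found in 96.9% of endothelial-like, 94.5% of chondrocyte-like, 61.4% of osteoblast-like and 45.1% of pericyte-like cells, against 9.58% of leukocyte-like and 9.25% of erythroid-like cells. Hspg2 was thus the only 1 of the 9 genes with more than 200 CPM in endothelial-like, stromal-like, osteoblast-like and chondrocyte-like cells alike.

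Set against osteoblast-like cells, all 9 genes were at least 2-fold higher in endothelial-like cells, against 21.3% of 8875 genes, with a median log2 ratio of 3.15 for the 9 genes and 0.29 for all genes. In pericyte-like cells 8 of 9 were at least 2-fold higher than in osteoblast-like cells (17.8% of 8812 genes, median log2 ratio 2.72 against 0.30), with Hspg2 as the exception. In stromal-like cells 7 of the 8 genes above the limit of 10 CPM were (11% of 8816 genes, median over all 9 members 1.84 against 0.27), again without Hspg2, and Lama5 was under the limit. Against chondrocyte-like cells, 7 of 9 were at least 2-fold higher in endothelial-like cells (34.5% of 8893 genes, median 4.47 against 0.51), with Nid2 and Hspg2 as the exceptions. Between osteoblast-like and chondrocyte-like cells, 5 of 8 were at least 2-fold higher in osteoblast-like cells (16% of 8230 genes, median over all 9 members 1.01 against 0.17): Col4a1, Col4a2, Lama4, Lamb1 and Lamc1. Nid2 and Hspg2 went the other way, at 10.2 times (9.21 to 11.3) and 3.54 times (3.42 to 3.67) the osteoblast-like level in chondrocyte-like cells. With 10 CPM added in place of 1 CPM before the ratio, the count of 5 was 3. The 5 comparisons share classes and are not independent.

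Pericyte-like cells had collagen levels close to those of endothelial-like cells and far less perlecan. Relative to endothelial-like cells, Col4a1 was 1.18 times as high (1.14 to 1.23), Nid1 0.87 times (0.79 to 0.97), Lama4 0.77 times (0.66 to 0.89), Lamc1 0.76 times (0.64 to 0.90) and Lamb1 0.74 times (0.63 to 0.86). Nid2 was 0.35 times (0.27 to 0.44) and Hspg2 0.22 times (0.19 to 0.26) as high. The median pericyte-like cell had 126 CPM of Hspg2, and the median endothelial-like cell 844 CPM. Without the called doublets, the ratio was 0.19 for Hspg2, 0.32 for Nid2 and 1.19 for Col4a1. The endothelial marker sum in pericyte-like cells was 461 CPM, or 4.23% of its level in endothelial-like cells, and the chondrocyte marker sum 7911 CPM, or 8.38% of its own class. The class is 1 cluster of 100 cells of 1 mouse, and under 5 alternative settings Col4a2 too was highest there.

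Shares within pairs of related genes compare 2 genes in the same cells. Col4a1 made up 65.8% (65.3 to 66.2) of the UMIs of both collagen genes in endothelial-like cells, 69.6% (68.3 to 70.8) in pericyte-like, 63.7% (62.3 to 65.1) in stromal-like and 66.8% (65.1 to 68.5) in osteoblast-like cells. The share was nearly constant although the summed level differed by more than an order of magnitude. In chondrocyte-like cells that were neither cycling, pre-hypertrophic nor hypertrophic (1476 cells) it was 44.6% (41.1 to 48.1), with Col4a1 at 11.7 CPM and Col4a2 at 14.5 CPM, against 64.1% (60.9 to 67.2) in leukocyte-like cells. The share was lowest in 1 of their 3 clusters, cluster 15 (396 cells, led by F3, Ucma and Penk), at 30.5% (24.9 to 36.5) with 178 Col4a2 UMIs. It was 50.4% (45.3 to 55.5) in cluster 1 and 53.0% (45.1 to 60.8) in cluster 2, so all 3 lay below the leukocyte-like share. Erythroid-like cells were also low, at 55.2% (47.7 to 62.6).

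Lama4 made up 77.7% (76.1 to 79.2) of the Lama4 and Lama5 UMIs in endothelial-like cells and 75.9% (70.0 to 81.2) in pericyte-like cells. In stromal-like, osteoblast-like and chondrocyte-like cells the share was 96.2%, 98.2% and 94.2%. Nid1 made up 67.3% (66.1 to 68.4) of the nidogen UMIs in endothelial-like cells, 83.7% (80.0 to 87.0) in pericyte-like cells, 76.7% in stromal-like cells, 50.7% in osteoblast-like cells and 9.72% (9.21 to 10.2) in chondrocyte-like cells. The nidogen ratio thus separated cartilage from vessel more than any other pair.

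**Figure D2:**
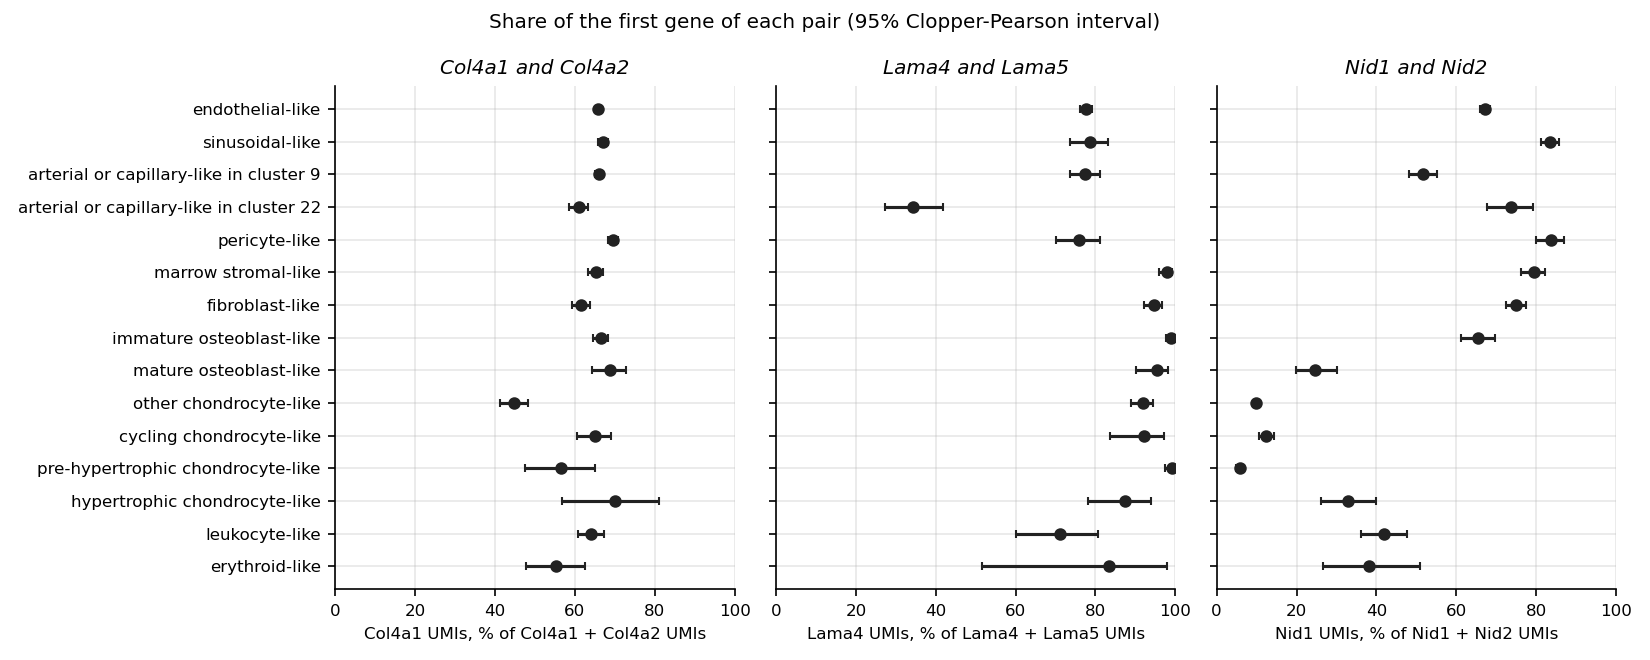
Share of the first gene in the UMIs of 3 pairs (Col4a1 with Col4a2, Lama4 with Lama5, Nid1 with Nid2), in percent, for subdivisions of the classes, with 95% Clopper-Pearson intervals. The Col4a1 share lies at 44.6% in the other chondrocyte-like cells, 55.2% in erythroid-like cells and between 56.5% and 70.0% in the rest, the Lama4 share drops to 34.3% in arterial or capillary-like cells of cluster 22, and the Nid1 share runs from 5.73% in pre-hypertrophic chondrocyte-like cells to 83.7% in pericyte-like cells.

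Endothelial-like cells were subdivided to see whether vessel types differ. Sinusoidal-like cells (142 cells), which line the wide marrow vessels, stood out by Stab2, a scavenger receptor, at 328 CPM. The other named endothelial-like cells (565 cells), here called cells without this signature, had Stab2 at 6.13 CPM. They were mixed. Sub-cluster 6 of the endothelial-like cells (156 cells, led by Gchfr and Npnt) had Stab2 at 14.5 CPM. It had 4 sinusoidal markers at 10 CPM or more, against 5 in sinusoidal-like cells. Of the 9 genes, 8 were lower by any amount in sinusoidal-like cells, as were 64.8% of 8262 genes. Lamb1 stood at 124 CPM there and 288 CPM in cells without the signature, a ratio of 2.32 (2.001 to 2.71), and Nid2 at 108.9 and 243 CPM, a ratio of 2.23 (1.90 to 2.63). These 2 of 9 passed 2-fold, as did 6.55% of the genes, and the median log2 ratio was 0.77 for the 9 genes and 0.16 for all genes. Only 1 of them passed with at least 2000 genes per cell (Lamb1) or without the called doublets (Nid2). Col4a1 stood at 2233 against 3350 CPM, a ratio of 1.5 (1.45 to 1.56). In sub-cluster 6 it was 2293 CPM (2214 to 2374), near the sinusoidal-like level, and in sub-clusters 0 and 1 it was 2986 and 3697 CPM.

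Nid1 was the exception. It stood at 554 CPM (517 to 592) in sinusoidal-like cells and 415 CPM in the cells without the signature, a ratio of 0.75 (0.69 to 0.81), so that its share of nidogen UMIs was 83.6% against 63.1%. Over the sub-clusters of the latter cells, Nid1 ran from 366 CPM in sub-cluster 0 to 454 CPM (422 to 486) in sub-cluster 1. The summed level of 13 pericyte or smooth muscle markers was 674 CPM in sinusoidal-like cells, with 3 of the 13 at 0, and 98.4 CPM in the others. Rgs4 is among those 13 markers and also among the leading genes of sinusoidal-like cells. Myh11 was at 0, which allows up to 1.95 CPM (3 counts), and Rgs5 at 4.54 CPM in them. The part of pericyte RNA in the Nid1 level was not tested.

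Arterial or capillary-like cells (141 cells) had Gja4, a connexin of arterial endothelium, at 399.6 CPM and Col4a1 at 4283 CPM. They came from 2 clusters, and because these looked unlike, the subset was divided after its values had been seen. The 77 cells of cluster 9 had more of the capillary genes, with Esm1 at 161 CPM, Apln at 73.2 CPM and Aplnr at 146 CPM. The 64 cells of cluster 22, led by Eln (elastin), Stmn2, Gja4 and Fbln5, had Gja4 at 796 CPM, Esm1 at 28.8 CPM, Aplnr at 3.39 CPM and Apln at 0, which allows up to 5.09 CPM. The summed endothelial markers were alike, at 13582 and 13911 CPM. The sum of 12 marrow stromal markers was 651 CPM in the cluster 9 cells (3 of the 12 at 0) and 1860 CPM in the cluster 22 cells (2 at 0), or 15.1% of its marrow stromal-like level, and its part in the differences that follow was not tested.

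Col4a1 stood at 5959 CPM (5803 to 6118) in the cluster 9 cells, the highest level of the gene in any group described, and at 1641 CPM (1539 to 1748) in the cluster 22 cells. The median cell had 5877 CPM in the former and 504 CPM in the latter, where the quartiles were 85.7 and 2420 CPM, so that the elastin-led cells were not uniform. Col4a2 stood at 3063 and 1054 CPM, Lamb1 at 509.9 and 165 CPM, Nid2 at 449 and 109 CPM, Hspg2 at 1458 and 629.5 CPM, and Lama4 at 418 and 100.1 CPM. Nid1 had 446 of 929592 UMIs in the cluster 9 cells and 180 of 589337 in the cluster 22 cells, beside 854 of 1542283 in sinusoidal-like cells. Lama5 was the only 1 of the 9 with the opposite order, at 122 CPM (100.2 to 146) and 192 CPM (158 to 231), a ratio of 1.58 (1.20 to 2.07). Lama4 was therefore 77.5% (73.6 to 81.1) of the Lama4 and Lama5 UMIs in the cluster 9 cells and 34.3% (27.2 to 41.9) in the cluster 22 cells. The other endothelial-like cells (424 cells) had Col4a1 at 3047 CPM, Lama5 at 57.7 CPM and Lama4 at 82.3% of the pair.

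**Figure D3:**
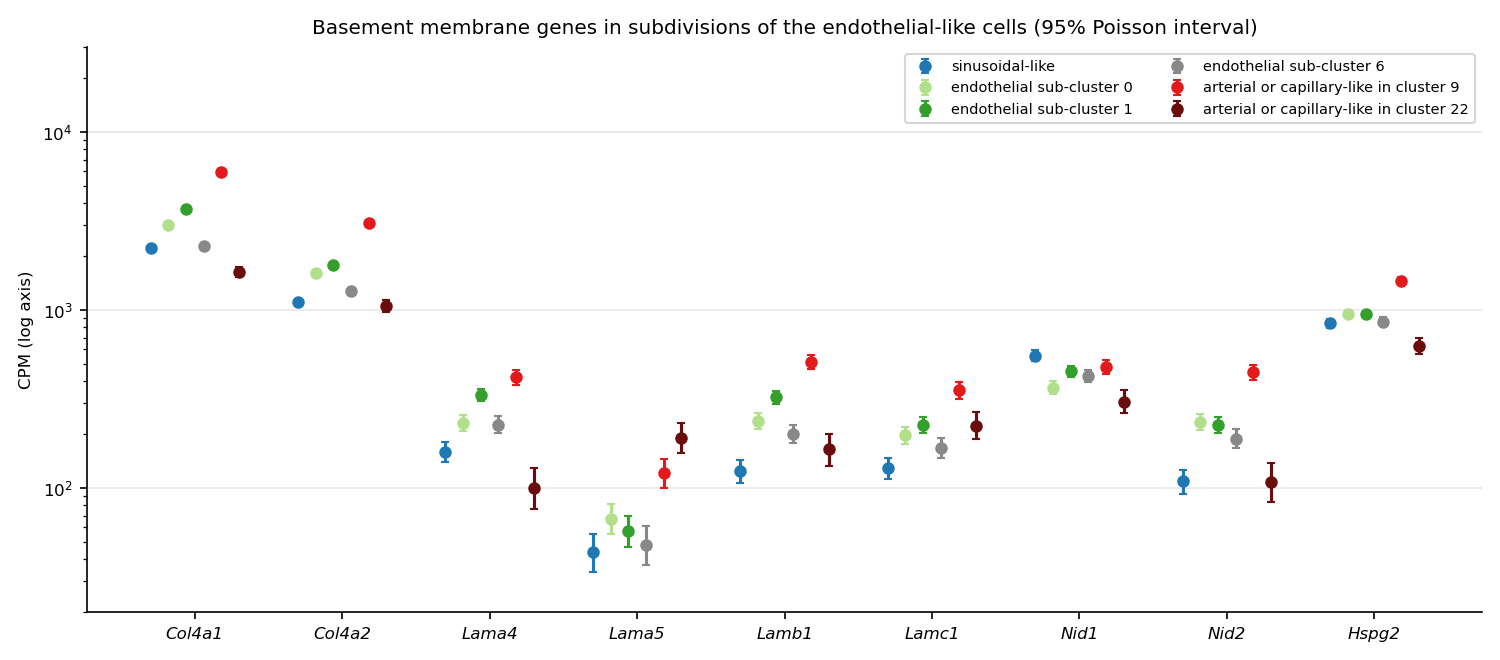
Level of each gene (CPM, log axis, 95% Poisson interval) in sinusoidal-like cells, in 3 further endothelial sub-clusters (0, led by cell cycle genes; 1, led by Ifit1 and Sele; 6, led by Gchfr and Npnt) and in the arterial or capillary-like cells of clusters 9 and 22. The cells of cluster 22 are lowest for Col4a1 (1641 CPM) and Lama4 (100.1 CPM) and highest for Lama5 (192 CPM), and sinusoidal-like cells are highest for Nid1 (554 CPM).

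Stromal-like cells fell into marrow stromal-like cells (256 cells), which had Cxcl12 at 7460 CPM, and fibroblast-like cells (292 cells), which had Aspn at 1825 CPM and Tnmd, a tendon gene, at 864 CPM. Marrow stromal-like cells had more Col4a1, at 567 against 387 CPM (ratio 1.46, 1.36 to 1.58), more Col4a2 (1.25, 1.14 to 1.38) and more Lamb1 (1.33, 1.17 to 1.51). Fibroblast-like cells had more Hspg2, at 472 against 202 CPM (marrow over fibroblast 0.43, 0.39 to 0.47), more Nid2 (0.50, 0.41 to 0.61), more Nid1 (0.64, 0.58 to 0.72) and more Lamc1 (0.68, 0.57 to 0.81). Lama4 was not separated (0.95, 0.82 to 1.10). The fibroblast-like cells were themselves mixed: Col4a1 was 563 CPM in the 174 cells of the cluster led by Mfap5 and Tnmd and 81.0 CPM in the 118 cells of the Aspn-led cluster. Endothelial marker sums were 194 CPM in marrow stromal-like and 209.7 CPM in fibroblast-like cells. Sums of the 10 erythroid markers were 46917 and 7927 CPM (27.6% and 4.66% of the erythroid-like level), those of the 31 leukocyte markers 2605 and 1020 CPM (5 and 6 of the 31 at 0), and those of the chondrocyte markers 1304 and 7045 CPM. The part of this RNA in the ratios was not tested.

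Osteoblast-like cells divided into immature (510 cells, led by Tnc, Wif1, Mmp9 and Mmp13) and mature ones (438 cells, led by Bglap). Col4a1 stood at 249.9 CPM (238 to 262) in immature and 34.7 CPM (31.1 to 38.8) in mature cells, a ratio of 7.19 (6.38 to 8.13). Lamb1 was 8.29 times (6.27 to 11.1), Col4a2 7.95 times (6.66 to 9.54), Nid1 6.69 times (5.17 to 8.76), Lama4 5.72 times (4.69 to 7.03) and Lamc1 2.27 times (1.83 to 2.82) as high in immature cells. Nid2 (1.16, 0.95 to 1.42) and Hspg2 (0.99, 0.93 to 1.07) were not separated. Thus 6 of the 8 genes above 10 CPM were at least 2-fold higher in immature cells, against 17.5% of 8415 genes, with a median log2 ratio of 2.43 over all 9 members against 0.48 for all genes.

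The collagen pair was unevenly spread over the immature cells: the median immature cell had no Col4a1 UMI, the upper quartile was 307 CPM, and after thinning 37.2% of them had a UMI, against 4.34% of mature cells. The latter share is at the leukocyte-like level. In mature cells a single cell held 65 of the 322 Col4a1 UMIs. The endothelial marker sum was 120.0 CPM in immature and 87.1 CPM in mature cells. Other lists differed more: the marrow stromal sum was 1245 CPM in immature and 129 CPM in mature cells (10.1% and 1.05% of its own class), the pericyte or smooth muscle sum 748 and 222 CPM (1 of 13 at 0 in each), and the chondrocyte sum 1147 and 7252 CPM. The study names Pdgfrb, of the pericyte or smooth muscle list, as a marker of immature osteoblasts. It also gives Grem1, Vcam1, Lpl and Steap4, of the marrow stromal list, as markers of osteo-progenitors. These sums are therefore not a measure of RNA of other cells alone, and the part of these lists in the ratios was not tested. Immature cells lay below marrow stromal-like cells, in which Col4a1 was 2.27 times (2.12 to 2.43), Lamb1 3.47 times (3.03 to 3.98) and Nid1 3.37 times (2.94 to 3.88) as high, and level with them for Hspg2 (0.96, 0.88 to 1.06). At a clustering resolution of 0.6, marrow stromal-like cells merged with osteoblast-like cells, and the Col4a1 level of that class was 200.2 CPM, whereas it was 77.95 CPM with at most 20% mitochondrial UMIs.

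Within chondrocyte-like cells, Hspg2 and Nid2 were lowest in hypertrophic cells, whereas Lama4 was raised in pre-hypertrophic cells over all other chondrocyte-like clusters. Pre-hypertrophic chondrocyte-like cells (191 cells, led by Ihh and Cdkn1c) had the highest Nid2 and Hspg2 levels of the cartilage groups, at 343 CPM (328 to 357) and 978 CPM (954 to 1003). Hypertrophic ones (105 cells, with Col10a1 at 11303 CPM) had 36.0 CPM (30.03 to 42.9) and 386 CPM (366 to 407), ratios of 0.11 (0.09 to 0.13) and 0.39 (0.37 to 0.42). Lama4 was 52.9 CPM in pre-hypertrophic and 19.9 CPM in hypertrophic cells, a ratio of 0.38 (0.29 to 0.49). It was 12.8, 10.2 and 17.99 CPM in clusters 1, 2 and 15 and 13.4 CPM in cycling cells. Hypertrophic cells were thus not low in Lama4 beside these other chondrocyte-like cells. Nid1 was not separated, at 20.8 and 17.6 CPM (0.84, 0.61 to 1.15), so the Nid1 share of the nidogens was 5.73% and 32.8%. Col4a1 stood at 11.7 and 11.9 CPM, under the leukocyte-like level, and 1 cell held 35 of the 74 Col4a1 UMIs of the pre-hypertrophic group. The leukocyte marker sum was 4986 CPM in hypertrophic cells, or 6.80% of the leukocyte-like level (5 of 31 at 0), and 199 CPM in pre-hypertrophic cells (4 at 0). F13a1 is among those 31 markers and also among the leading genes of the hypertrophic cells, so the sum is not a measure of leukocyte RNA alone. The part of leukocyte RNA in these ratios was not tested.

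The reporter allowed HC-derived osteoblast-like cells to be set beside the others, with more than 14 UMIs of WPRE, a sequence of the tdTomato transgene, as the cutoff of the study. Because Col10a1Cre acts on both the reporter and Irx3, HC origin and the Irx3 deletion cannot be told apart in this comparison. It was passed by 241 of 948 osteoblast-like cells: 90 of 510 immature (17.6%) and 151 of 438 mature ones (34.5%). Of the 8 genes above 10 CPM, 2 differed at least 2-fold, both lower in the cells above the cutoff, against 2.44% of 7922 genes. Nid1 stood at 11.01 CPM above and 32.3 CPM not above the cutoff (ratio 0.34, 0.25 to 0.46), and Lamb1 at 11.2 and 31.5 CPM (0.36, 0.26 to 0.48). Col4a1 stood at 87.0 and 138 CPM (0.63, 0.56 to 0.70) and Hspg2 at 197 and 216 CPM (0.91, 0.84 to 0.98). The median log2 ratio over all 9 members was -0.59, against 0.000627 for all genes. The count was 0 at a clustering resolution of 0.6, 4 with at most 5% mitochondrial UMIs, and 1 (Nid1) with 10 CPM added or with at least 1 WPRE UMI.

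Since cells above the cutoff were more often mature, the ratios were also taken within each stage. Within immature cells Nid1 was 0.42 (0.29 to 0.60), Nid2 0.40 (0.23 to 0.66) and Lamb1 0.50 (0.35 to 0.69), with Lamc1 at 0.69 (0.468 to 0.996), whereas Col4a1 (1.07, 0.95 to 1.21), Col4a2 (1.05, 0.89 to 1.25), Lama4 (1.01, 0.80 to 1.25) and Hspg2 (0.98, 0.86 to 1.12) were not separated from 1. Within mature cells Col4a1 was 0.33 (0.24 to 0.45), Col4a2 0.51 (0.33 to 0.75), Lamb1 0.50 (0.25 to 0.93), Nid2 0.71 (0.52 to 0.96) and Hspg2 0.87 (0.79 to 0.96). Nid1 (0.59, 0.32 to 1.01), Lama4 (1.20, 0.82 to 1.75) and Lamc1 (1.05, 0.73 to 1.49) were not separated from 1 in mature cells. The mature cells not above the cutoff include the cell with 65 of their 271 Col4a1 UMIs. The endothelial marker sum was also lower above the cutoff, at 60.9 against 136 CPM in immature cells and 31.2 against 119 CPM in mature cells. The cells compared within a stage were not matched in maturity markers: the sum of 11 mature osteoblast markers was 286 against 948 CPM in immature cells and 7410 against 23950 CPM in mature cells. The part of either list in these ratios was not tested. In marrow stromal-like cells, Col4a1 stood at 592 CPM in the 50 cells above the cutoff and 560.0 CPM in the 206 others.

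**Figure D4:**
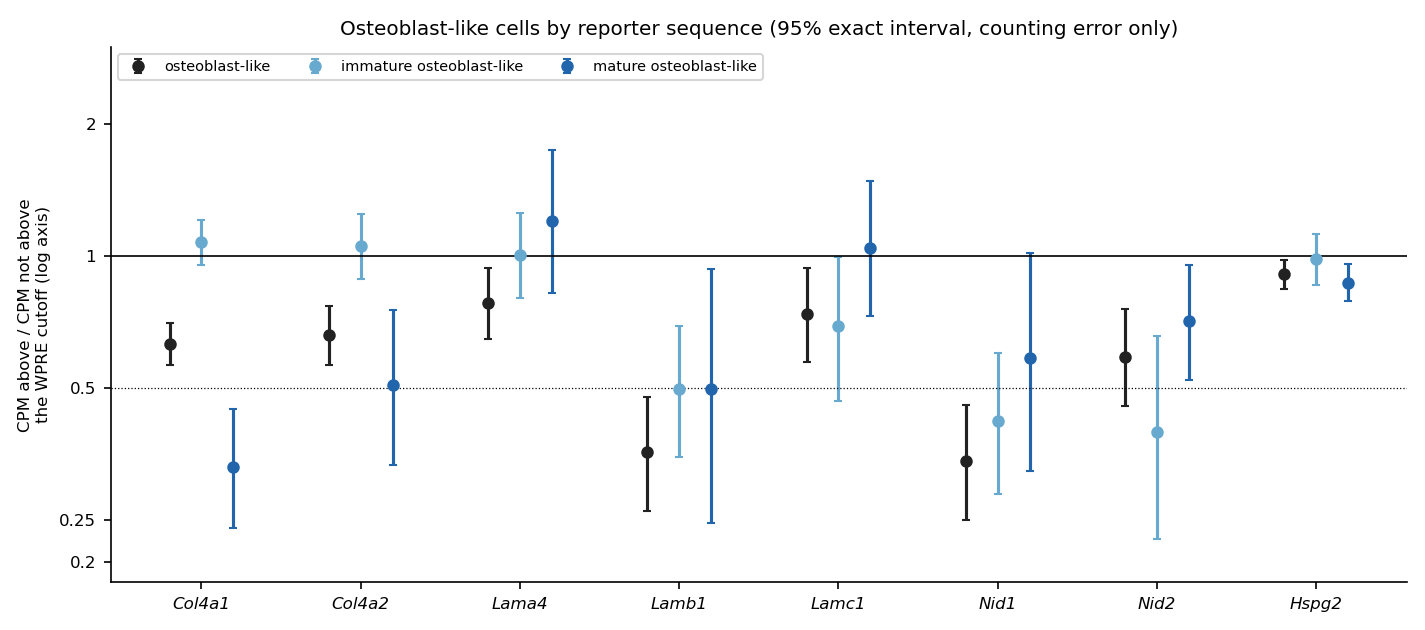
Ratio of the level above the WPRE cutoff to the level not above it (log axis, 95% exact interval of counting error) for 8 genes in all, immature and mature osteoblast-like cells, with a solid line at 1 and a dotted line at a 2-fold lower level. Nid1, Nid2, Lamb1 and Hspg2 lie below 1 in all 3 sets as points. The intervals of Nid1 in mature cells and of Hspg2 in immature cells include 1. Col4a1 lies at 1.07 in immature and 0.33 in mature cells.

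Across single cells, several of the 9 genes were found together in the vascular classes. In cells thinned to 5000 UMIs, the median endothelial-like cell had a UMI of 6 of the 9 genes, and 44 of 731 cells had all 9. The median was 5 in pericyte-like, 4 in stromal-like, 2 in chondrocyte-like, 1 in osteoblast-like and 0 in leukocyte-like cells. Col4a1 and Col4a2 were both found in 703 of 731 endothelial-like cells (96.2%), and their log levels correlated at r = 0.73 over these cells, 0.75 over 91 pericyte-like cells and 0.74 over 497 immature osteoblast-like cells. In cluster 9, the larger endothelial-like cluster, Col4a1 alone was found in 99.6% of thinned cells and Col4a2 in 99.3%. Joint detection there follows from these shares. Lama5 showed no correlation with Col4a1 over endothelial-like cells (r = -0.02), but both were found in only 191 of 731 of them. With so few Lama5 UMIs per cell, this r cannot show whether the 2 genes vary together. Over the 28 clusters of all cell types their r was 0.81. In pericyte-like cells Hspg2 ran against Col4a1 (r = -0.34) and Nid1 (r = -0.35), whereas Lamb1 went with Col4a1 (r = 0.34). Called doublets were among these cells, and the chondrocyte marker sum of the class was 7911 CPM with them and 2721 CPM without. The part of chondrocyte RNA, or of smooth muscle cells, in these values was not tested. All cells were treated as 1 library, and the values are descriptive.

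Over the 28 clusters, Col4a1 was most like Col4a2 (r = 0.99), Col18a1 (0.95) and Sema4c (0.94) among 7290 genes. Lama5 was most like Pcdh1 (0.98), Esam (0.96) and Tcf15 (0.96), Lama4 like Kctd17, Tgfb1i1 and Mpdz (0.94 each), Lamb1 like Adgra2 (0.96), Col4a2 and Lamc1, and Lamc1 like Dock6 (0.96), Lamb1 and Dbn1. Nid1 was most like Pxdn (0.97), Rhoj (0.97) and Cavin1 (0.95). Nid2 was most like Creb3l2 (0.97), Tns2 (0.96) and Hspg2 (0.95), and Hspg2 like Creb3l2, Fscn1 and Wwtr1 (0.96, 0.95 and 0.95). The correlation of Col4a1 with Nid2 was 0.29 and with Hspg2 0.39. Esam is an endothelial marker used for the names, and clusters share the library.

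The other basement membrane genes were taken from a list of 47, of which 34 had at least 10 CPM in 1 of the 5 classes. Of these, 13 were highest in pericyte-like, 11 in endothelial-like, 4 in osteoblast-like, 4 in chondrocyte-like and 2 in stromal-like cells. Among all 10058 genes above the same limit, 24.7% were highest in pericyte-like and 31.4% in endothelial-like cells. The 4 other collagen IV chains were all under 10 CPM. Of 7 other laminin chains 3 were above it: Lamb2 was highest in pericyte-like cells (192 CPM), as was Lama2 (33.5 CPM), and Lama3 in endothelial-like cells (13.1 CPM). Of 15 other components 11 were above it. Col15a1, a collagen of vessel basement membranes, was highest in endothelial-like cells (332 CPM), and Col18a1, the source of endostatin, and Tinagl1 in pericyte-like cells (1031 and 356 CPM, beside 679 and 161 CPM in endothelial-like cells). Npnt and Vwa1 stood at 213 and 100.4 CPM in endothelial-like cells and at 2.87 and 0.956 CPM in pericyte-like cells, whereas Smoc2 stood at 531 CPM in chondrocyte-like cells and 16.8 CPM in endothelial-like cells.

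All 10 receptor genes were above 10 CPM, with 6 highest in pericyte-like and 4 in endothelial-like cells. Over all 10058 genes above that limit, the shares were 24.7% and 31.4%. Itga1, the alpha chain of a collagen receptor, stood at 812 CPM in pericyte-like and 74.9 CPM in endothelial-like cells, and the laminin receptor chain Itga7 at 114 and 3.51 CPM. Another laminin receptor chain, Itga6, stood at 273 CPM in endothelial-like and 46.9 CPM in pericyte-like cells, and Itga2 at 115 and 3.83 CPM. Itgb1, their shared beta chain, was at 779.5 CPM in pericyte-like and 691 CPM in endothelial-like cells. Of 6 folding and crosslinking genes, Pxdn, which crosslinks type IV collagen, was highest in endothelial-like cells (219 CPM), and Serpinh1, a collagen chaperone, and Sparc in osteoblast-like cells (2802 and 18723 CPM). Mmp14, the membrane-bound metalloproteinase, was highest in stromal-like cells (681 CPM), next to 429 CPM in osteoblast-like and 195 CPM in endothelial-like cells.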

How the data were processed

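Cells of the proximal and distal tibia of 1 P6 mouse were profiled by droplet 3′ RNA-seq, and the 4 sequencing entries were treated as 1 library, since 1 joint matrix was deposited. The authors deposited raw UMI counts from Cell Ranger 3.1.0, one matrix of genes on mm10 and one of exogenous sequences (WPRE and tdTomato among them), which were joined here by barcode. Seurat 3 is also named in the submitters' processing notes. Which annotation release was used upstream is not stated in them. Of 31053 gene identifiers, 30934 matched GENCODE M21, which gave coordinates.

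Barcodes with at least 1600 genes, at most 10% mitochondrial and at most 50% ribosomal protein UMIs were kept, giving 8256 of 14181 (8705 before the latter 2 limits) and a depth of 2623 to 85279 UMIs per cell. With scanpy 1.11.5 and igraph 0.11.9 (Python 3.11.15, with scipy 1.17.1 for the intervals), counts were scaled to 10000 per cell, and 2000 variable genes (without the basement membrane list, Mmp genes and Pth1r), 30 principal components, 20 neighbours, Leiden resolution 1 (0.6 within endothelial-like cells) and seed 1 were used. Clusters were named from 18 marker lists. That rule was changed once the clusters were known, so names here may differ from the study's. Scrublet, at an expected rate of 10%, marked 588 barcodes (4.15%) as doublets, which were kept except in an alternative. The 2 clusters and the endothelial sub-clusters with over 30% doublets stayed unnamed (181 and 113 cells).

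A level (CPM) is the sum of a gene's UMIs in a class, scaled to 1e+06 UMIs, with exact Poisson intervals, shares carry exact Clopper-Pearson intervals, and ratios carry exact conditional intervals. UMIs of 1 library are not independent cells or mice, so intervals cover counting error only, and a count of 0 was read against a limit of 3 counts. Log2 ratios were taken with 1 CPM added for genes that reached 10 CPM in 1 or both groups, and a gene was counted when it differed at least 2-fold. Without replicates no test was run. Shares of cells with a UMI were taken after thinning to 5000 UMIs, with shallower cells left out, 89 of 820 in endothelial-like and 225 of 2678 in leukocyte-like cells. HC-derived cells had more than 14 WPRE UMIs, as in the study's methods. The ratio step was tested on simulated counts with known changes. Likeness is Pearson's r of log2(CPM + 10) over the clusters among genes with at least 50 CPM in 1 of them.

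Named genes are the 9 members, genes of a list of 47 other basement membrane genes with at least 10 CPM in a class, the 3 genes most like each member, and markers. The members and all lists were chosen with earlier results of these data known. Alternatives changed the resolution, seed, variable genes, mitochondrial and gene limits, doublets, the way of combining cells, thinning, the added CPM and the reporter cutoff.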

Additional observations from a re-analysis of the deposited data

How the results depend on the processing

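Of 134 counts recomputed under 14 alternative settings, 122 stayed within 1.5 times the main count. The setting with 10 CPM added acts on ratios only, so the levels and the counts by highest class could not change under it. The number of genes at least 2-fold higher in osteoblast-like than chondrocyte-like cells was 3 with 10 CPM added. For the other named endothelial-like cells over sinusoidal-like cells it was 1 with at least 2000 genes per cell and 1 without doublets. The number that differed with the WPRE cutoff was 0 at a resolution of 0.6, 4 with at most 5% mitochondrial UMIs, 1 with 10 CPM added and 1 with at least 1 WPRE UMI. The number highest in pericyte-like cells was 2 at a resolution of 1.5, with at most 5% mitochondrial UMIs, with at least 2000 genes per cell, as a mean over cells, and after thinning. The cause was not tested. At a resolution of 0.6, marrow stromal-like cells joined the osteoblast-like class, whose Col4a1 level was then 200.2 CPM. A Schwann-like class was named with the basement membrane list among the variable genes (13 cells) and with at most 20% mitochondrial UMIs (14 cells). The main setting named none, and which class held those cells there was not tested. Of 882 log2 ratios, 809 stayed within 1.5 times, and 0 of those past 2-fold turned in direction. Of the 45 levels of the 9 genes in the 5 classes, 36 stayed within 1.5 times with at most 5% mitochondrial UMIs, and 40 to 45 under the other settings. With at most 5% mitochondrial UMIs the stromal-like class held 131 cells, all fibroblast-like, so its levels there are those of another set of cells. No paired analysis was possible because all cells are in 1 joint matrix, treated as 1 library, which also left no replicate to leave out. Depth limits statements on Lama5 outside the vascular classes, which rest on 11 to 53 UMIs a class.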
